A study of Drosophila melanogaster with 3 samples.

Results

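Intronic RNAs from 6 genes of the small RNA pathways were examined among the stable intronic sequence RNAs (sisRNAs) listed for the unfertilized egg of Drosophila melanogaster. A sisRNA is made from an intron and persists after the messenger RNA has been spliced. The genes are the Argonaute genes piwi and AGO3 together with loqs, vig, Tudor-SN and Fmr1, found by their symbols in the authors' 2 lists. They are 6 of the 295 host genes in the longer list, which gives each host's chromosome arm and poly(A) signal hexamers. Of these 6 genes, 2 are among the 140 sisRNAs of the counted list, which adds a centre position and a read count. Each entry of the counted list is a host gene with 1 read count, and 5 of the 140 entries, none of them from these 6 genes, give 2 centres under that count. An entry is called a sisRNA here, whether it gives 1 centre or 2. The lists name 298 hosts in all. The genes were chosen because they stood in the longer list, so their presence there is a description and not a result.

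The RNA came from unfertilized eggs of y w flies, in which the RNA was supplied by the mother. Ribosomal RNA was removed, and the polyA-plus fraction, the polyA-minus fraction and the undivided total RNA were sequenced with 1 library each. The single read count column does not say which library it came from. The fractions therefore could not be compared, and replicates were lacking for every value. Library depth is unknown, and markers of the egg or of other cells could not be checked in lists of intron hosts. The lists give no sisRNA length, so a read count is not a level per length and does not rank genes by abundance.

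Small RNA pathways use short guide RNAs bound to Argonaute proteins to find and silence other RNAs. In the fly germ line, PIWI-interacting RNAs (piRNAs) hold transposable elements in check, and the mother loads both piRNAs and their Argonaute proteins into the egg. MicroRNAs and small interfering RNAs are cut from double-stranded precursors by Dicer enzymes with the help of double-stranded RNA-binding partners. Their effector complex, RISC, contains an Argonaute together with accessory proteins.

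The sequences listed for these hosts are the poly(A) signal hexamers, which are shown because they are the sequence property recorded for every host. The canonical signal is aauaaa, and auaaaa and auuaaa are variants of it. For piwi and for vig the list gave aauaaa alone, as for 27.1% of all hosts in the longer list. For AGO3 and for Fmr1 it gave both aauaaa and auaaaa (12.5%). For loqs it gave auaaaa alone (11.2%), and for Tudor-SN it gave none (25.1%). The variant auuaaa was listed for 0 of the 6 genes, against 24.1% of all hosts. At least 1 hexamer was listed for 5 of the 6 genes, against 74.9% of all hosts. The canonical aauaaa was listed for 4 of 6 (46.4% of all hosts) and auaaaa for 3 of 6 (28.5%). With 6 genes these counts describe the genes and were not tested. The stretch of RNA in which the authors sought the hexamers is not stated.

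**Figure D1:**
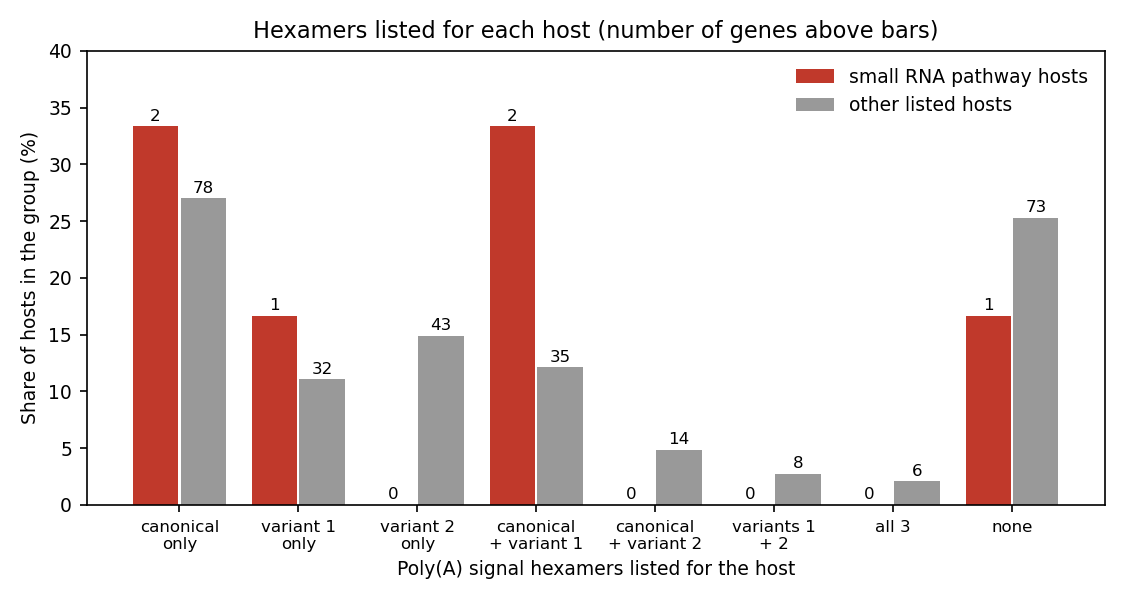
Share of hosts with each set of listed hexamers (y axis, percent of the group) for the 6 small RNA pathway hosts (red) and the 289 other hosts of the longer list (grey), with the number of genes above each bar. Canonical is aauaaa, variant 1 is auaaaa and variant 2 is auuaaa. The pathway hosts fall into 4 of the 8 sets, with 2 genes each in the canonical set and in the set of the canonical signal with variant 1.

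Among the Argonautes, piwi was the host with a read count. Piwi is the nuclear Argonaute of the piRNA pathway, which directs transcriptional silencing of transposable elements. Its sisRNA was centred at position 10984705 of arm 2L (dm3) and had 37 reads (exact Poisson 95% interval 26.1 to 51.0, counting error only). This was below the median of 48 reads over the 138 counted sisRNAs of other genes, which lay inside the interval. Of those sisRNAs 51 had fewer reads (37.0%), 2 had as many and 85 had more. On arm 2L, 7 of 18 other sisRNAs had fewer reads (38.9%), and the median there was 41.5 reads. Of the 23 other counted sisRNAs with aauaaa alone, 8 had fewer reads (34.8%), and their median was 64 reads within a range of 9 to 869. The closest in count among these were the sisRNAs of RnrS with 34 reads and CG30020 with 48. The next counts above and below that of piwi over the whole list were 38 reads, in CG7998, and 35 reads, in CG31211 and lic. CG12811 and CG32537 had the same count of 37 as piwi. These sisRNAs were picked because their counts were close or equal to that of piwi, so the overlap of their intervals with its interval follows from the choice. The place of piwi among them was not resolved. The median of 64 reads of the sisRNAs with aauaaa alone lay above the interval of piwi, a difference that was not tested. The nearest other counted sisRNA on the arm, in cmet, was centred 282036 bases away.

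AGO3 is the cytoplasmic Argonaute that cuts RNA in the ping-pong cycle, in which sense and antisense piRNAs amplify each other. It was listed on arm 3L with aauaaa and auaaaa and had no read count. On 3L, 31.7% of the listed hosts had a count. Of the hosts with exactly these hexamers 37.8% had a count, Fmr1 being among those that did.

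The other 4 genes belong to the microRNA and small interfering RNA pathways or to RISC. The gene loqs encodes loquacious, the double-stranded RNA-binding partner of Dicer-1, with an isoform that works with Dicer-2. It was listed on 2L with auaaaa and the authors' remark of a cis-natural antisense transcript (cis-NAT), which is an RNA transcribed across the gene in the other direction. That remark was carried by 3.73% of the listed hosts. It had no read count, and 42.4% of hosts with auaaaa alone had one. The gene vig encodes an RNA-binding protein found in RISC. It was listed on 2L with aauaaa and had no read count, where 30.0% of hosts with aauaaa alone had one. Tudor-SN encodes a RISC component with staphylococcal nuclease-like domains and a Tudor domain. It was listed on 3L with no hexamer and had no read count. Of hosts without a hexamer 58.1% had a count, and of hosts on 3L 31.7% had one.

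Fmr1 was the other counted host. It encodes the fly homologue of the fragile X protein FMRP, an RNA-binding repressor of translation that associates with RISC. Its sisRNA was centred at 5932728 on 3R (dm3) and had 53 reads (39.7 to 69.3). Of the 138 other counted sisRNAs 74 had fewer reads (53.6%), 1 had as many and 63 had more. On 3R, 21 of 36 others had fewer reads (58.3%), and the median was 42.5 reads. Among the 15 other counted sisRNAs with aauaaa and auaaaa the median was 44 reads, the range was 15 to 275 and 9 had fewer reads. The closest of these in count were CG9399 with 55 reads, also the next above Fmr1 over the whole list, and eff with 47. Both of them also lay on 3R. The subunit gene rga of the CCR4-NOT deadenylase had the same count of 53 reads, and CG10874, syb and CG10107 followed with 52 each. The nearest other counted centre on the arm was that of CG12811, at a distance of 58732 bases.

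Over the 6 genes, 2 had a read count, against 46.4% of the longer list, and the count was 1 of 3 on 2L, 0 of 2 on 3L and 1 of 1 on 3R. The shares over all hosts of these arms were 39.6%, 31.7% and 58.7%. The Poisson intervals of Fmr1 and piwi overlapped, and together they held 90 reads, 0.331% of the listed reads in piwi and 0.475% in Fmr1. Both lay between the quartiles of the other counted sisRNAs, which were 25.3 and 90.3 reads. The hexamers of these genes were the same in both lists.

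**Figure D2:**
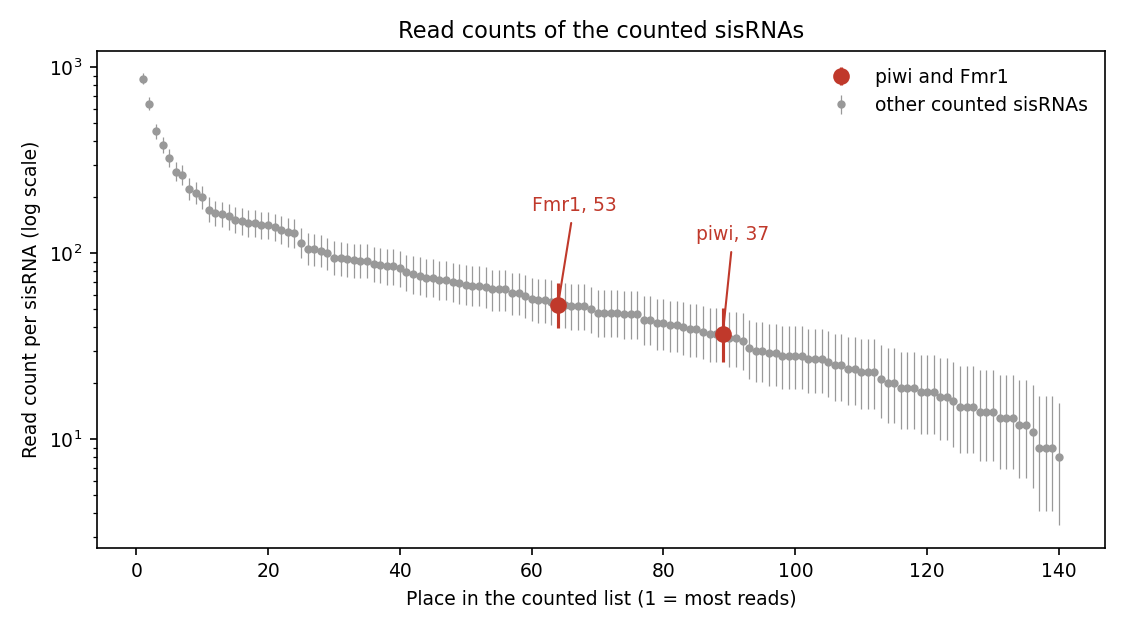
Read count of each of the 140 counted sisRNAs (y axis, log scale) by place in the list (x axis, 1 is the highest count), with exact Poisson 95% intervals as bars. Fmr1 at 53 reads and piwi at 37 reads (red) lie among many sisRNAs with overlapping intervals.

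The structure of the genes was read from a gene annotation of assembly BDGP6, a later build than the dm3 of the lists. Names, lengths, the order of genes on each arm and the features inside or across genes were taken from it. No dm3 position was placed in it, so which intron gave rise to a sisRNA was not determined. The longest intron of AGO3 had 40112 bases, longer than that of 97.5% of the other 280 hosts compared and of 98.6% of all other protein-coding genes with an intron. The longest intron had 2456 bases in vig, 1316 in Fmr1, 1299 in Tudor-SN, 1120 in piwi and 964 in loqs. In these 5 genes it was longer than in 33.9% (loqs) to 55.4% (vig) of the other hosts and than in 67.5% to 77.7% of all other genes with an intron. The median over the 6 genes was 1308 bases, against 2023 for the other hosts and 254 for all other genes. A longest intron of at least 1000 bases was found in 5 of the 6 genes, against 65.4% of the hosts and 32.1% of all genes with an intron.

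**Figure D3:**
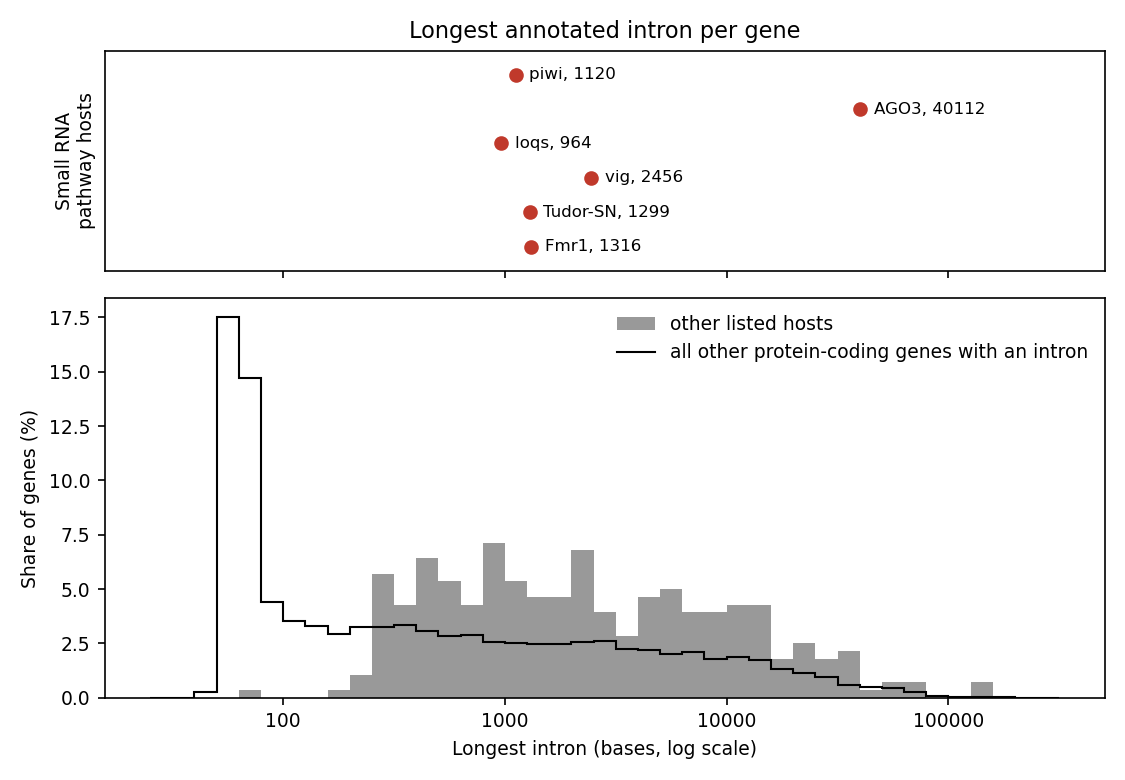
Longest annotated intron of each gene in bases (x axis, log scale), for the 6 small RNA pathway hosts as labelled points (top) and as the share of genes in percent (bottom) for the other 280 hosts (grey) and all 11813 other protein-coding genes with an intron (line). AGO3 at 40112 bases lies in the right tail, and the other 5 genes lie between 964 and 2456 bases.

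The genes differed in how their introns were arranged. Fmr1 had 17 distinct introns over 11 transcripts, more than 86.1% of the other hosts, and 11 of these introns were shorter than 100 bases. In contrast, AGO3 had 9 introns, the shortest of which had 1332 bases, and spanned 135048 bases, a greater length than 98.6% of the other hosts. The gene loqs, with 8 introns over 6 transcripts, spanned 3020 bases and was the shortest of the 6 genes. Introns were pooled over transcripts, so some of those counted are alternatives of each other. In loqs the introns of 504, 634, 961 and 964 bases began at the same base. The intron numbers therefore depend on how many transcripts are annotated. AGO3 also lay close to the centromere, where 26 of the 2305 genes with an intron on 3L lay nearer to it (1.13%). At the opposite end of the same arm, 98.6% of the genes lay nearer to the centromere than Tudor-SN. For piwi, loqs, vig and Fmr1 the share was 43.1%, 33.5%, 27.1% and 22.6%.

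Transposable elements, the targets of the piRNA pathway, were annotated inside introns of piwi and AGO3 and of none of the other 4 genes. The Argonaute genes that were not listed were not compared, so this describes piwi and AGO3 and not Argonaute genes in general. Among all hosts in the annotation 17.8% had such an element, and among all genes with an intron 6.94%. In piwi there were 3 fragments, of 117, 143 and 292 bases. The shortest and the longest are INE-1 fragments on the opposite strand to piwi, and the middle one is a Cr1a fragment on the same strand. The INE-1 fragment of 117 bases lies in the intron of 1120 bases, and the fragments of 143 and 292 bases lie in the intron of 604 bases. AGO3 held 105 fragments from 47 families, more than any of the other 280 hosts compared. They covered 94115 bases, 69.7% of the gene, and 25 of them were INE-1 fragments. Of the 105 fragments 47 lay on the strand of AGO3 and 58 on the opposite strand. Whether the number of fragments in AGO3 goes with the gene's length or with its place close to the centromere was not tested. The annotation describes the sequenced reference strain, and whether the y w flies carried the same insertions is not known from the lists. The labels do not state how reads with several mapping places were treated, so a read from a repeated element cannot be assigned to these introns with certainty.

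Tudor-SN was the one gene of the 6 with small RNA genes inside its introns, a feature of 2.45% of the hosts and 0.846% of all genes with an intron. Small nucleolar RNAs (snoRNAs) guide chemical modification of other RNAs and in flies are commonly cut out of introns. The snoRNA gene snoRNA:Tudor-SN-a, of 311 bases, fills most of an intron of 397 bases. The gene snoRNA:Psi18S-996, of 151 bases, lies in an intron of 231 bases. Both are on the strand of Tudor-SN. Whether the authors' list refers to these introns or to the longest intron of 1299 bases could not be read from it, since Tudor-SN has no listed centre.

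Another gene overlapped on the opposite strand in 4 of the 6 genes, against 39.5% of the hosts and 40.1% of all genes with an intron. The overlap was of very different extent. The whole of vig, 7386 bases, lay inside the span of vas, which encodes the germ-line RNA helicase Vasa and spans 12656 bases. It also lay inside the span of solo, which shares its start with vas. The name vig stands for vasa intronic gene. In the annotation, 5451 of its bases lay in a single intron of vas, exons of vas covered 436 of its bases, and exons of solo covered 1499. Neither vas nor solo was in either list. The antisense RNA gene asRNA:CR44599 of 582 bases lay within loqs, over 19.3% of its length. The authors' remark of a cis-NAT for loqs names no transcript and gives no position, so it cannot be matched to this gene. The genes piwi, vig and Tudor-SN, which were also overlapped on the opposite strand, carried no such remark. The actin regulator gene SCAR shared 191 bases with the end of piwi, and wac, a subunit gene of the augmin complex, shared 55 bases with the end of Tudor-SN. No such gene overlapped AGO3 or Fmr1. The labels do not state whether reads were assigned by strand, so RNA from vig and RNA from vas or solo at the same place cannot be told apart in the list.

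**Figure D4:**
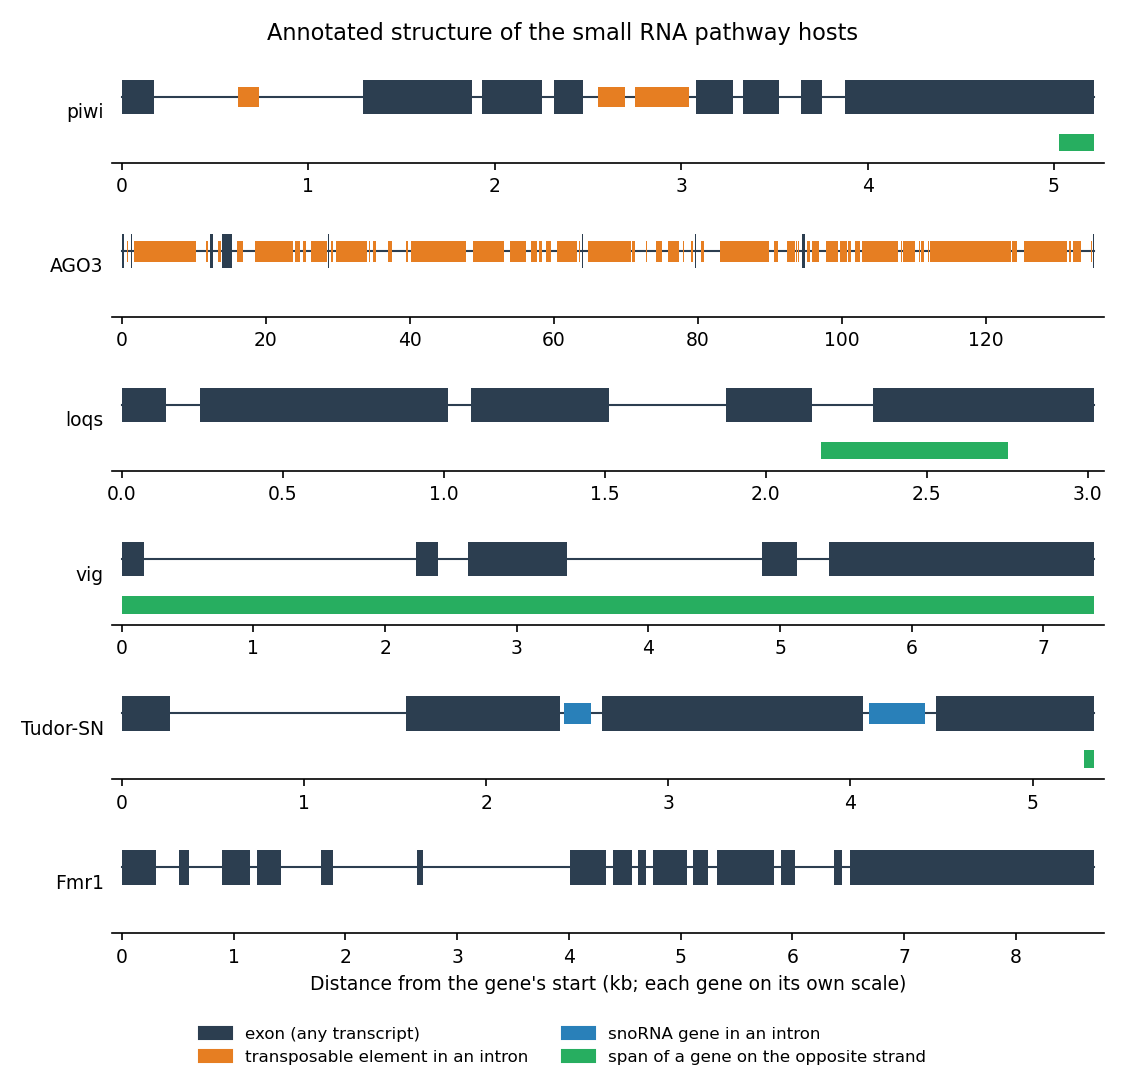
Exons (dark boxes), introns (lines), transposable elements inside introns (orange), snoRNA genes inside introns (blue) and the spans of genes on the opposite strand (green) for the 6 genes, by distance from the gene's start in kilobases, each gene on its own scale. AGO3 is filled with transposable elements over 69.7% of its length, piwi holds 3 fragments, Tudor-SN holds 2 snoRNA genes, and vig is overlapped along its whole length.

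The rest of the pathways was followed through 2 lists of genes, 34 of the piRNA pathway and 17 of the microRNA and small interfering RNA pathways. The longer list held 2 of the 34, piwi and AGO3, and 4 of the 17, namely loqs, vig, Tudor-SN and Fmr1. Because these 6 were chosen from the longer list, the share of 11.8% of the 51 genes, against 2.42% of all genes with an intron, is a description only. The 51 genes include 4 without an intron, so the bases of these shares are not alike. The 45 genes that were not listed included the other Argonautes, namely aub, the second cytoplasmic Argonaute of the ping-pong cycle, AGO1 of the microRNA pathway and AGO2 of the small interfering RNA pathway. The Dicer genes Dcr-1 and Dcr-2, the microRNA processing genes drosha and pasha and the Dicer-2 partner gene r2d2 were also not listed. Of the 45, 41 had at least 1 intron and 15 had an intron of 1000 bases or more. The longest intron had 351 bases in aub, 2998 in AGO1 and 2377 in AGO2. It had 63 bases in Dcr-1 and 93 in r2d2. The gene qin, which encodes a Tudor domain protein of the ping-pong cycle, had an intron of 51690 bases, longer than the longest of AGO3, and was not listed. The median longest intron was 1308 bases over the 6 listed genes and 439 over the 41 genes with an intron that were not listed. A gene missing from the lists cannot be read as a gene without intronic RNA, because the labels do not state how a sisRNA was called.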

How the data were processed

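The authors deposited 2 sheets with whole-number read counts that were not normalized, in 1 column without a library name (per the file headers). Positions are in dm3, according to the submitters' processing notes, which name no aligner or counter. Symbols were compared without bracketed remarks or letter case. Read counts have exact Poisson 95% intervals, which cover counting error only, since reads lacking molecular identifiers may be copies of each other. Library depth is unknown. No test was made, as no value has a replicate.

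Gene structure came from Ensembl release 115 (BDGP6.54), with names and synonyms from it and from the RefSeq gene table. Of 295 hosts 290 matched, 2 of them on another arm than listed. The comparisons used 286 protein-coding hosts with an intron on the listed arm and 11819 such genes in all. Introns of all transcripts were pooled. A transposable element or small RNA gene counted when wholly inside an intron. Small RNA genes were those of snoRNAs, microRNAs, small nuclear RNAs and small Cajal body RNAs. Opposite-strand genes excluded pseudogenes and transposable elements. Intron and feature finding was tested on simulated data.

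The 6 genes and the pathway lists were chosen with earlier results of these data known. The named genes were the 6 members, for each counted member the 2 closest counts with the same hexamers and the adjacent rows of the list, and the pathway genes. Nearest centres, annotated neighbours and overlapping genes were added after the values were seen. Alternatives were read minimums, rows left out, arm, synonyms, and transcripts. No genome sequence was used here, so introns were not searched for hexamers. The software was scipy 1.17.1 and numpy 2.4.6 under Python 3.11.15.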

Additional observations from a re-analysis of the deposited data

How the results depend on the processing

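The read counts of piwi and Fmr1 were taken as deposited and both lay above the read minimums, so no setting could change them. The share of other counted sisRNAs with fewer reads was compared under 6 alternatives. Under 5 of them it was 35.1% to 38.9% for piwi and 51.2% to 58.3% for Fmr1. These shares lay inside the exact Clopper-Pearson 95% intervals of the main shares (28.9% to 45.6% for piwi, 44.9% to 62.1% for Fmr1). Such an interval treats the rows of the list as independent draws. It served as a yardstick only and measures no spread in these data. Most of the alternatives left out few rows, so they could move the share only little. With a minimum of 20 reads the share of other sisRNAs with fewer reads was 23.0% for piwi and 43.4% for Fmr1, which follows from leaving out low counts. The median of the counted genes was 45 reads. With each gene left out in turn it was 53 or 37, which are the counts of Fmr1 and piwi themselves. The number of genes with a count or a hexamer was within 1.5 times under each alternative. Without the 6 chosen genes, 0 of the other 45 genes in the pathway lists were listed, a count that depends on which genes those lists hold. With introns of the longest transcript alone, the share of other hosts with a shorter longest intron was 46.4% for piwi, 99.3% for AGO3, 22.5% for loqs, 61.8% for vig, 50.4% for Tudor-SN and 51.1% for Fmr1. Against hosts with a read count only, an alternative added after the data were seen, it was 50.0%, 99.3%, 47.0%, 69.4%, 56.0% and 56.0% in the same order. For all 6 genes both alternatives lay outside the Clopper-Pearson interval of the main share, so the share by longest intron depends on the setting. In loqs the longest intron had 504 bases in the longest transcript and 964 over all transcripts. Transposable elements of at least 100 bases gave the same 2 genes, against 15.7% of hosts. The planned search of introns for hexamers was not run. No paired analysis was possible because each fraction had 1 library and the counts name none.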

Other observations

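Further hosts that the pathway lists do not hold, most of them with links to small RNA pathways, were noticed when the list was read. They were chosen after their values were seen and by no fixed rule, so their lack of a read count is a description only. Over the longer list 46.4% of hosts had a read count. The share was 30.0% for hosts with aauaaa alone and 58.1% for hosts with no hexamer. Hel25E, the fly UAP56 helicase, which carries piRNA precursors out of the nucleus, was listed on 2L with aauaaa and had no read count. Trf2, a TBP-related transcription factor that also serves at piRNA clusters, was listed on X with aauaaa and the remark of a cis-NAT, and had no read count. The gene twin, which encodes the CCR4 subunit of the deadenylase recruited in microRNA silencing, was listed on 3R with no hexamer and had no read count. Rack1, a ribosome-associated scaffold protein gene, was listed on 2L with no hexamer and had no read count.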
